A study of Mus musculus with 14 samples.

Results

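The genes described here are 10 genes of the NF-kB system: the 5 subunits Nfkb1, Nfkb2, Rel, Rela, and Relb, the classical inhibitors Nfkbia, Nfkbib, and Nfkbie, and the nuclear regulators Nfkbiz and Bcl3. They were taken by name, 10 of 21440 protein-coding genes for which a start could be placed on GRCm38, and at each one the trimethylation of histone H3 at lysine 4 (H3K4me3) was read from peak lists. H3K4me3 was profiled by CUT&Tag, in which an antibody guides a transposase that cuts and tags the DNA around the mark. The sample titles name the related method CUT&RUN instead. The cells were LSK cells, the lineage-negative, Sca1-positive, cKit-positive fraction of mouse bone marrow that contains hematopoietic stem and progenitor cells. LSK cells were sorted from male C57BL/6J mice that ate a high-fat diet (HFD, 60% of calories from fat) or a low-fat diet (LFD, 10%). The diets started at 3 to 4 weeks of age and lasted 16 to 20 weeks, the labels name no other treatment for either group, and each library was made from 10000 cells. There were 3 HFD-LSK and 4 LFD-LSK libraries, each with its own peak list, and 7 IgG control samples were not analysed here. The paper compares the diets within cohorts and describes a second cohort of LSK cells. The labels do not give the cohort of a library or say whether it came from 1 animal or a pool, so cohorts could not be entered in the tests and p-values measure the spread between these libraries, which may be technical.

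NF-kB is a family of dimeric transcription factors that drive inflammatory and survival genes. In resting cells the dimers are held in the cytoplasm by IkB proteins, kinases of the IKK complex mark IkB for destruction, and the freed dimers enter the nucleus and also switch on the genes of their own inhibitors, which closes a feedback loop. In blood stem and progenitor cells the pathway takes part in the response to inflammatory signals and in myeloid output. H3K4me3 collects in domains around the starts of genes that are active or poised, so a peak at a start says that the promoter carries the mark, not how much RNA or protein is made.

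Promoter sequences from RefSeq (GRCm38.p6, from 250 bases before to 50 bases after a start) matched 7 of the 10 genes in 9 windows of 300 bases. They are shown because several of these promoters carry kappa B motifs, the sequences that NF-kB dimers bind, and because the peaks lie over them. The 5 windows below are written 5′ to 3′ on the strand of the gene, and capitals mark matches to the kappa B consensus on either strand, with overlapping matches run together.
Nfkb2, chr19:46304487-46304786, plus strand: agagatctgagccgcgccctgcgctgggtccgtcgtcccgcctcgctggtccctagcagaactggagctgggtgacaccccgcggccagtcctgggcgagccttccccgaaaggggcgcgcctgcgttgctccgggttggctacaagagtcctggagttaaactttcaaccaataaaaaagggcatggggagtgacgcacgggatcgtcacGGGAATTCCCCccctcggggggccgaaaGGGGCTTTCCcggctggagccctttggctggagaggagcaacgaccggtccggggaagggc
Rel, chr11:23770920-23771219, minus strand: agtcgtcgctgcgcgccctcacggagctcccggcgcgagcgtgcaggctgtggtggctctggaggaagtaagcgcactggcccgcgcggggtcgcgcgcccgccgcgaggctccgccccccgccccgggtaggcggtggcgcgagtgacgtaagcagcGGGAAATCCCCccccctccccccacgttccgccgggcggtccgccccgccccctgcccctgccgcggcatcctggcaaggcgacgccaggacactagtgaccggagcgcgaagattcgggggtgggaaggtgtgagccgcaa
Nfkbia, chr12:55492598-55492897, minus strand: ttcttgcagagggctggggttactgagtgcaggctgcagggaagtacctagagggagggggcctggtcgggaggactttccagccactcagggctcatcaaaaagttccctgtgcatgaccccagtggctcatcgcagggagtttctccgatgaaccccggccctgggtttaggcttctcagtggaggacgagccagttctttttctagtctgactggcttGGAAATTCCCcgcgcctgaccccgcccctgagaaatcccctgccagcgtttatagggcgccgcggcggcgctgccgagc
Bcl3, chr7:19822706-19823005, minus strand: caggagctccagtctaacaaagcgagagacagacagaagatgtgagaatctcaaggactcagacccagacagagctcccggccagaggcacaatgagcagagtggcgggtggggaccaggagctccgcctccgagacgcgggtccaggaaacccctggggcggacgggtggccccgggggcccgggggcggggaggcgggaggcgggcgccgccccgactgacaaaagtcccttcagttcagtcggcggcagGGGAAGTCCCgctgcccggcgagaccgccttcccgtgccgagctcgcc
Rela, chr19:5637291-5637590, plus strand: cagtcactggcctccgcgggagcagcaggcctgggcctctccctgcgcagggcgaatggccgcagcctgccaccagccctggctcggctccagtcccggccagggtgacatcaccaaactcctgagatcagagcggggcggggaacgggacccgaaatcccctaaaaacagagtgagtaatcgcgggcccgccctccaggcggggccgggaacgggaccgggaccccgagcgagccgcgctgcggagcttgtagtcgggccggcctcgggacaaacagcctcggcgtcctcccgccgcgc

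The kappa B consensus was present in 7 of the 9 windows, from 5 of the 7 genes (Nfkb2, Rel, Nfkbia, Nfkbie, and Bcl3), whereas 9.26% of 21230 windows of coding genes held it. Of these 7 windows 3 belong to Nfkb2, and 2 of those overlap and share the match GGGACTTTCC, so the windows are not independent of each other. No match lay in the windows of Rela and Nfkbib. With the start counted as base 0, the match of Nfkbia spanned bases -29 to -20, the match of Rel, which fits the consensus on both strands, bases -92 to -83, and the match of Bcl3 bases 2 to 11. In the first Nfkb2 window the palindrome GGGAATTCCC occupied bases -39 to -30 and a further match, GGGGCTTTCC, bases -11 to -2. The matches of Rel, of Nfkbia, and of the first Nfkb2 window were inside the H3K4me3 domain in 6 of the 6 lists that called each gene, that of Bcl3 in 2 of 3 lists, and that of Nfkbie, 106 to 97 bases upstream of its start (bases -106 to -97), in 1 of 6. Between 56.3% and 75.0% of the bases in the 9 windows were G or C, against a median of 56.3% over all windows, and the windows held 15 to 42 CpG dinucleotides against a median of 13. These are descriptions of letters, and binding was not measured.

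The lists held 9186, 13094, and 11977 peaks for HFD-LSK replicates 1 to 3 and 7447, 10572, 10352, and 6921 peaks for LFD-LSK replicates 1 to 4. The number of fragments at each summit could be recovered from the fold and p-value columns. In these columns the fragments are scaled to the control of the library. The recovered factors were 0.199, 0.421, and 0.913 for HFD-LSK replicates 1 to 3. For LFD-LSK replicates 1 to 4 they were 0.0958, 0.312, 0.375, and 0.226. The median peak rested on 15 to 43 fragments in the HFD lists and on 19 to 48 in the LFD lists, so single peaks are small counts. LFD-LSK replicate 4 stood apart, with the fewest peaks, the lowest mean coverage (0.0891 fragments per base against 0.116 to 0.268 in the others), and the narrowest peaks (median 525 bp against 741 to 1198 bp). As a check of the cell label, 9 of 10 LSK markers carried a start peak in each HFD list and 7 to 9 in the LFD lists, and 6 of the 10 were called in all 7 lists. Ly6a, which encodes Sca1, was called in no list. B cell and non-blood markers (4 genes each) had no peak in any list, T cell markers 1 peak in 1 HFD list, and mature myeloid markers at most 1 of 4 (Cd14, in 6 lists). Erythroid markers were called at 1 to 3 of 4 genes in HFD lists and at 0 to 1 in LFD lists, and the part of this difference in the results below was not tested.

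All 10 genes carried a peak within 1 kb of a start in at least 1 list, against 53.9% of all coding starts. Nfkb1 and Rela were called in all 7 lists, which is 2 of 10 genes beside 21.8% of coding starts. Nfkb2, Rel, Relb, Nfkbia, and Nfkbie were called in 6 lists, with LFD-LSK replicate 4 the one without a peak. Nfkbib was also called in 6 lists and lacked a peak in LFD-LSK replicate 1. Nfkbiz had a start peak in 5 lists, the 3 HFD lists and LFD-LSK replicates 1 and 2. Bcl3 had one in 3 lists, HFD-LSK replicates 2 and 3 and LFD-LSK replicate 2. By list, 9, 10, and 10 of the genes were called in HFD-LSK replicates 1 to 3, and 8, 10, 8, and 3 in LFD-LSK replicates 1 to 4. Of all 21440 coding starts, the same HFD lists called 8866, 11110, and 9767, and the LFD lists 7465, 9674, 9277, and 6563. The fewest calls of both kinds were thus in LFD-LSK replicate 4.

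The missing calls were concentrated in 1 library. Of 6245 coding starts called in the other 6 lists, 25.1% had no peak in LFD-LSK replicate 4, and of the 7 NF-kB genes called in those 6 lists, 5 had none. Without that library, 7 of the 10 genes were called in every remaining list. No gene of the 10 passed the test of calls by diet (two-sided Fisher's exact test, p = 0.429 for Nfkbiz, p = 0.486 for Bcl3, and p = 1 for the other 8). With 3 HFD and 4 LFD lists, a Fisher p under 0.05 needs a start called in every list of 1 diet and in none of the other. Genes called in 5, 6, or 7 lists could not reach it, so among the 10 only Bcl3, called in 3 lists, could have passed. Over 11564 coding starts called in at least 1 list, 0.285% had a Fisher p under 0.05. That share also includes starts that could not pass, so the 0 of 10 says little about calls by diet.

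Peak strength was compared as the fold rank, the place of the peak by fold enrichment within its own list as a percent of that list, with values near 0 for the strongest peaks. Fold itself depends on the depth and background of each library and was not compared between lists. In the mean over calling lists, Rel ranked nearest the top (22.2%), followed by Nfkb2 (25.7%), Nfkbia (27.5%), Nfkbib (28.7%), Nfkb1 (37.8%), Rela (44.4%), Relb (50.9%), Nfkbie (59.4%), Bcl3 (59.6%), and Nfkbiz (63.8%). No neighbours in this order were separated in every list, since the gene placed first was nearer the top in 3 of 6 lists for Rel and Nfkb2 and in 4 of 7 for Nfkb1 and Rela. Of 45 pairs of genes, 4 kept 1 order in every list that called both. Rel, Nfkb2, and Nfkbia each stood above Nfkbiz in 5 of 5 lists, and Nfkb2 above Bcl3 in 3 of 3. The place of Nfkbiz and its count of calls rest on the 5' end of its RefSeq span, taken as the start. A peak inside Nfkbiz, beside other annotated transcript starts and described below, was called in 7 of 7 lists and does not enter this order.

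**Figure D1:**
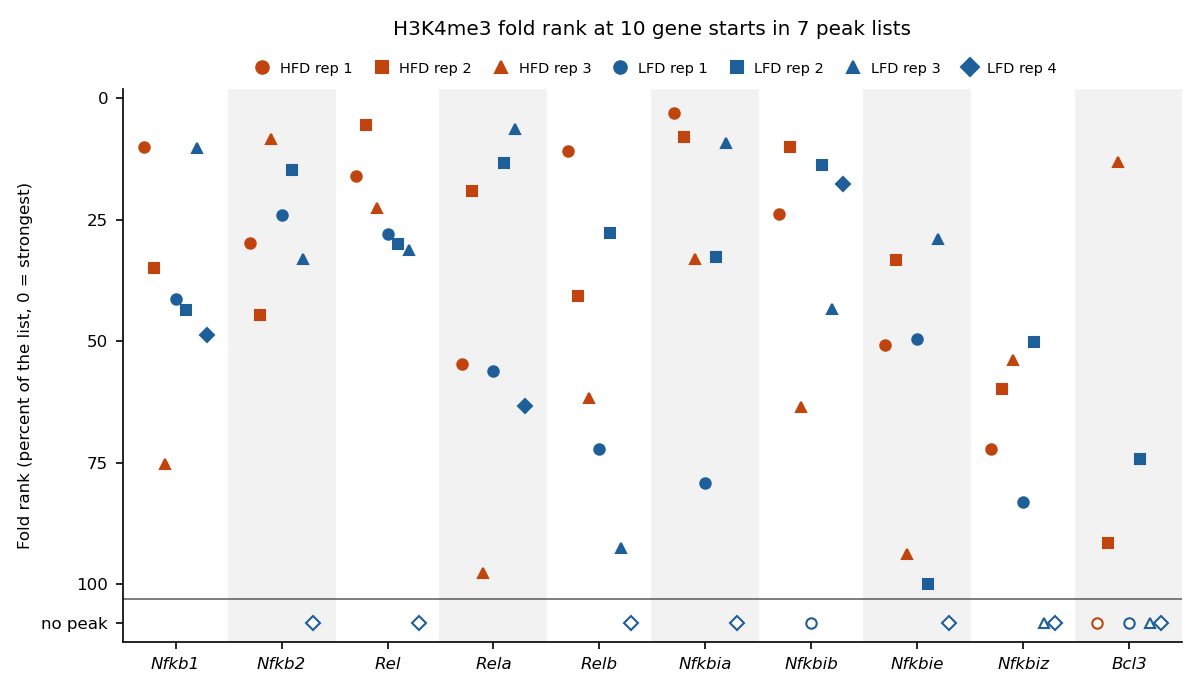
Fold rank of the start peak of each gene (vertical axis, percent of the list, strongest at the top) in the 3 HFD-LSK lists (orange) and 4 LFD-LSK lists (blue), with the marker shape giving the replicate and open symbols for lists without a peak. HFD and LFD points interleave for most genes, and 7 of the 10 genes have an open diamond, LFD-LSK replicate 4.

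Median fold ranks of the called NF-kB genes ranged from 23.8% to 57.8% between lists, while the median over all called coding starts stayed between 39.6% and 44.7%. The 10 genes as a group therefore stood above the median start in some lists and below it in others. Their median domain was 1366, 1530, and 893 bp wide in the HFD lists and 884, 1054, 1334, and 583 bp in the LFD lists, beside all-start medians of 938, 1363, and 901 bp and 791, 1062, 916, and 580 bp. In 5 of the 7 lists the members' median was the wider one.

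Rela and Nfkb1 could be tested by diet over all 7 lists. Rela, the p65 subunit with a transactivation domain, starts on chromosome 19 at 5637541 on the plus strand. Its fold ranks were 54.6%, 19.1%, and 97.7% in HFD-LSK replicates 1 to 3 and 56.2%, 13.3%, 6.24%, and 63.4% in LFD-LSK replicates 1 to 4. The gene thus ran from near the top to near the end of the lists, and the diets overlapped over most of the range. The HFD mean was 57.1% ± 39.4 (SD, n = 3) and the LFD mean 34.8% ± 29.2 (n = 4), a difference of 22.4 percentage points that was smaller than the HFD spread (two-sided exact permutation test, p = 0.486, adjusted p = 0.968 over 4677 starts). Among these starts, 2.42% had an unadjusted p under 0.05 and none passed adjustment. HFD-LSK replicate 3 carried the difference, which fell to 2.08 points without it. The Rela domain measured 998, 1263, and 676 bp in the HFD lists and 803, 1312, 1403, and 413 bp in the LFD lists. Both diets held narrow and broad domains, and the width rank gave an exact permutation p of 0.543, where 1.84% of the 4677 starts had one under 0.05.

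Nfkb1 encodes p105, the precursor of the p50 DNA-binding subunit, and starts on chromosome 3 at 135691969 on the minus strand. Fold ranks of 10.1%, 34.9%, and 75.2% in the HFD lists stood beside 41.4%, 43.6%, 10.3%, and 48.8% in the LFD lists. One library of each diet was near the top, and HFD-LSK replicate 3 was again the lowest. The means were 40.1% ± 32.8 (SD, n = 3) for HFD and 36% ± 17.4 (n = 4) for LFD (exact permutation p = 0.971, adjusted p = 0.994). Leaving out HFD-LSK replicate 3 turned the difference from 4.02 points to -13.5 points, and leaving out LFD-LSK replicate 3 to -4.56 points. Domains of 1425, 1819, and 1242 bp in HFD lists compared with 964, 1231, 1275, and 959 bp in LFD lists. The HFD domains averaged 1495 ± 295 bp (SD) and the LFD domains 1107 ± 169 bp, with overlap between them (exact permutation test of the width in bp, p = 0.0857, and of the width rank, p = 0.371). The mark lay inside the gene, with summits 509 to 1012 bp downstream of the start in 7 of 7 lists and on average 3.08% of the domain upstream. The median over 9571 coding genes with 1 listed start was 27.1%, with quartiles of 10.6% and 47.2%. The Nfkb1 start used here is the 5' end of the RefSeq span. In the GENCODE annotation of GRCm39, further Nfkb1 transcripts, not classed as protein-coding, begin 434 to 525 bp downstream of the first coding start.

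Rel, the c-Rel subunit best known from lymphocytes, starts on chromosome 11 at 23770969 on the minus strand. It ranked at 16%, 5.47%, and 22.5% in the HFD lists and at 27.9%, 29.9%, and 31.3% in LFD-LSK replicates 1 to 3, with no peak in LFD-LSK replicate 4. Every HFD list placed it nearer the top than every calling LFD list, and it was nearer the top than the median start in 6 of 6 lists. Its summits held 59, 78, and 16 fragments in the HFD lists and 57, 44, and 22 in the LFD lists, so some of these places rest on few fragments. The means of 14.7% ± 8.59 (SD, n = 3) and 29.7% ± 1.75 (n = 3) differed by 15 points (exact permutation p = 0.1, the smallest that 3 against 3 lists allow). Rel was the 1 gene of the 5 called in all lists but LFD-LSK replicate 4 whose diets were apart in fold rank, and 8.29% of 1568 coding starts with the same calls were apart in either direction. With the list without a peak counted as 100%, the difference was -32.6 points (exact permutation p = 0.114). Its summit height relative to the mean coverage of the library was 294, 291, and 138 in the HFD lists and 267, 256, and 165 in the LFD lists. On that scale the diets overlapped (difference of -0.0229 in the negative log2 of the height, exact permutation p = 1). Domain widths of 1801, 2339, and 859 bp (HFD) and 1246, 1496, and 1392 bp (LFD) overlapped as well (exact permutation p = 1 for the width rank).

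Nfkb2 encodes p100, the precursor of p52 and an inhibitor in its own right, and has 3 RefSeq starts on the plus strand of chromosome 19, at 46304737 and at 958 and 1193 bp further downstream. A single domain covered the first start in 6 of 6 calling lists, the second in 6, and the third in 4. The domain ranked at 29.7%, 44.5%, and 8.4% in the HFD lists and at 24%, 14.8%, and 33% in LFD-LSK replicates 1 to 3. HFD lists held both the highest and the lowest of these places. Means were 27.5% ± 18.1 (SD, n = 3) and 23.9% ± 9.09 (n = 3; exact permutation p = 0.9). With a width of 1333 to 2114 bp, this was among the broader domains. Nfkb2 shares its window with the antisense lncRNA gene 4833438C02Rik, whose start lies 66 bp from the nearest Nfkb2 start, and a peak cannot be assigned to one of the 2 genes.

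Relb, the partner of p52 in the noncanonical pathway, starts on chromosome 7 at 19629438 on the minus strand. Fold ranks were 10.9%, 40.7%, and 61.7% in the HFD lists and 72.1%, 27.8%, and 92.6% in LFD-LSK replicates 1 to 3. The diets overlapped through LFD-LSK replicate 2 (means 37.8% ± 25.5 and 64.1% ± 33.1, SD, n = 3 each, exact permutation p = 0.4). Its domain was 1115, 1117, and 952 bp wide in the HFD lists and 331, 877, and 417 bp in the LFD lists. Every HFD domain was thus wider than every LFD domain, and the same held for the width rank within the list (exact permutation p = 0.1, the smallest possible). The nearest width ranks were 55% in HFD-LSK replicate 2 and 56.3% in LFD-LSK replicate 2. In LFD-LSK replicate 3 the peak did not cover the start, since it began more than 500 bp inside the gene and ended 962 bp inside. Relb was again 1 gene of 5, beside 8.42% of the 1568 coding starts with these calls whose width ranks were apart in either direction. LFD-LSK replicates 1 and 3, the lists with the 2 narrow domains, called Relb with -log10 p of 5.63 and 5.73, close to the limit of the lists. The summits there held 76 and 23 fragments, at 356 and 172 times mean coverage. Over all calling lists the heights were 324, 276, and 164 times in HFD and 356, 325, and 172 times in LFD. The diets thus overlapped on that scale, with the LFD height above the HFD height at each replicate number.

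**Figure D2:**
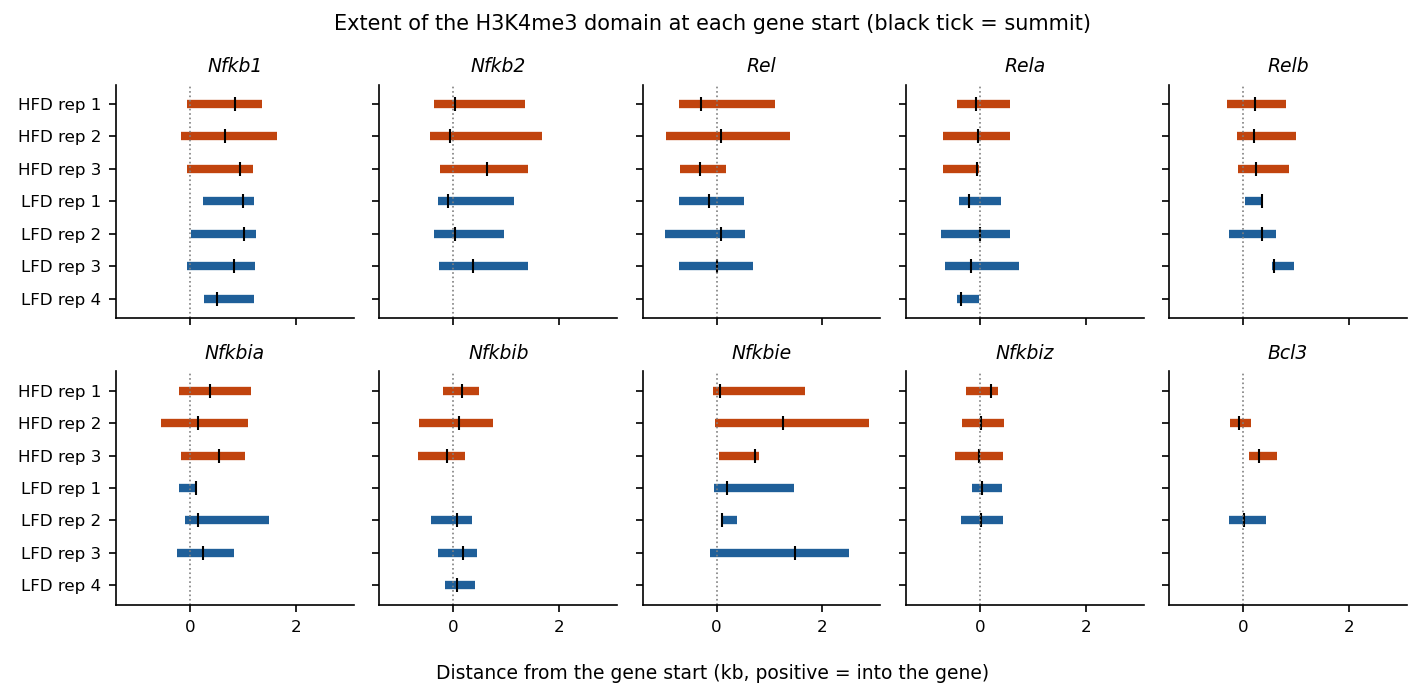
Extent of the domain at each gene start in each list (horizontal axis, kb from the first listed start, positive into the gene), with HFD-LSK in orange, LFD-LSK in blue, and a black tick at the summit. Domains of Nfkb1 and Nfkbie lie almost wholly downstream of the start, Rela reaches 402 to 739 bp upstream, and Relb domains are shorter in LFD-LSK replicates 1 and 3.

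Nfkbia encodes IkBa, the inhibitor that NF-kB itself rapidly induces, and starts on chromosome 12 at 55492647 on the minus strand. Its fold ranks were 2.94%, 8.01%, and 33% in the HFD lists and 79.2%, 32.7%, and 9.15% in LFD-LSK replicates 1 to 3, with no peak in LFD-LSK replicate 4. HFD-LSK replicate 1 held it near the very top and LFD-LSK replicate 1 near the end, with the other 4 in between. The means were 14.7% ± 16.1 (SD, n = 3) and 40.3% ± 35.6 (n = 3; exact permutation p = 0.3). In LFD-LSK replicate 1 the peak was 326 bp wide with a -log10 p of 5.01, against widths of 1077 to 1654 bp in the other 5 lists. At 408, 298, and 181 times mean coverage in HFD lists and 220, 302, and 225 times in LFD lists, the summits overlapped between diets. The lncRNA gene Gm36634 starts 648 bp away and shares the window.

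Nfkbib encodes IkBb, a more slowly acting inhibitor, and starts on chromosome 7 at 28766644 on the minus strand, 108 bp from the divergent start of Sirt2, a deacetylase gene. The shared peak ranked at 23.8%, 9.97%, and 63.6% in the HFD lists and at 13.7%, 43.3%, and 17.6% in LFD-LSK replicates 2 to 4. Nfkbib was the 1 inhibitor called in LFD-LSK replicate 4, where it stood high in the list. HFD and LFD means of 32.5% ± 27.8 and 24.9% ± 16.1 (SD, n = 3 each) overlapped in their values (exact permutation p = 0.7). Domains measured 583 to 1406 bp.

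Nfkbie encodes IkBe and starts on chromosome 17 at 45555700 on the plus strand. Fold ranks of 50.7%, 33.3%, and 93.8% in the HFD lists compared with 49.5%, 99.9%, and 29% in LFD-LSK replicates 1 to 3. The means were 59.3% ± 31.1 and 59.5% ± 36.4 (SD, n = 3 each, exact permutation p = 1). The domain was 1734, 2915, and 745 bp wide in the HFD lists and 1528, 291, and 2638 bp in the LFD lists. Broad and narrow domains appeared in both diets. In HFD-LSK replicate 3 and LFD-LSK replicate 2, the lists with the narrow domains, a second peak began 1425 and 1097 bp downstream of the start and measured 741 and 1444 bp, so the domain was called in 2 pieces there. On average 2.18% of the domain lay upstream of the start, the lowest share of the 9 genes with 1 start.

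**Figure D3:**
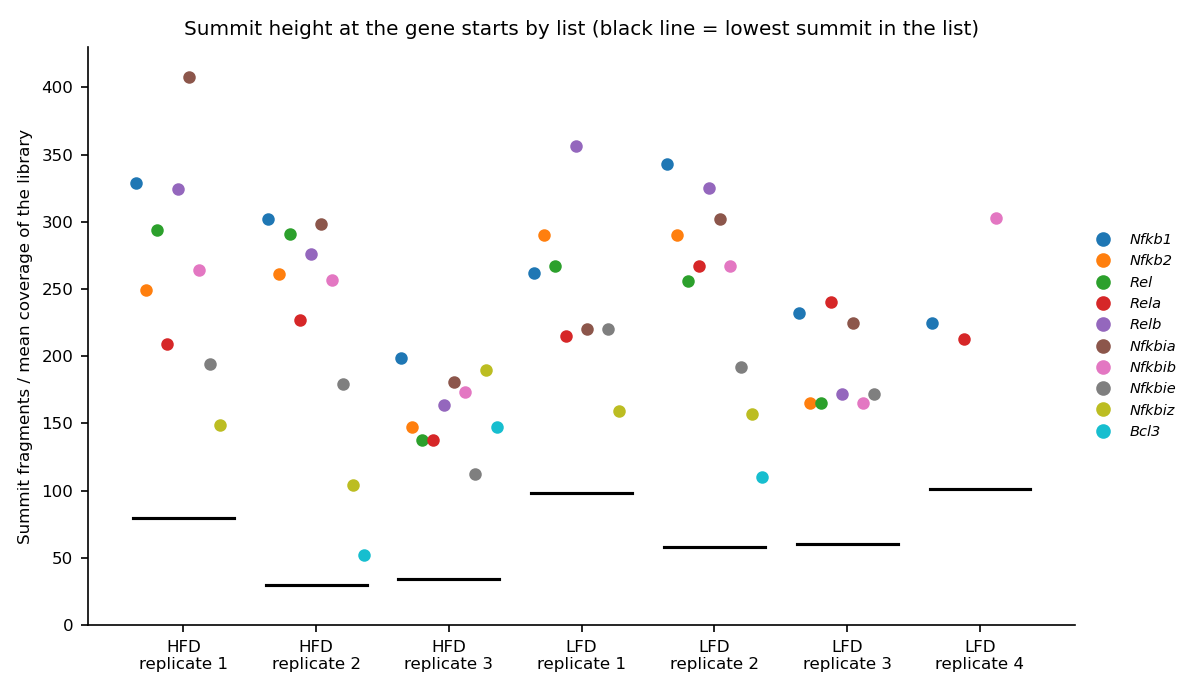
Summit height of the start peaks (vertical axis, fragments at the summit divided by the mean coverage of the library) for the 10 genes in each list, with a black line at the lowest summit of any peak in the list. The line stands at 101 in LFD-LSK replicate 4 and 98.3 in LFD-LSK replicate 1 and at 29.8 to 79.7 in the other 5 lists.

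The lists did not reach equally far down. The lowest summit in the list of LFD-LSK replicate 4 stood at 101 times mean coverage and rested on 9 fragments, whereas HFD-LSK replicate 2 listed summits from 29.8 times. The 5 genes missing from LFD-LSK replicate 4 alone had summits of 112 to 408 times mean coverage in the other lists, above that lowest summit. Nfkb1, Nfkbib, and Rela were called there at 225, 303, and 213 times. Nfkbib had no peak in LFD-LSK replicate 1 although its summits elsewhere were 165 to 303 times mean coverage. The parts of depth and of the scaling to the control in these missing calls were not tested.

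Nfkbiz encodes IkBz, a nuclear IkB protein that acts with p50 on secondary inflammatory genes, and its start lies on chromosome 16 at 55838954 on the minus strand. The start peak was weak, at 72.1%, 59.8%, and 53.9% of the HFD lists and at 83.1% and 50.2% of LFD-LSK replicates 1 and 2. It was farther down than the median start in 5 of 5 lists, and the diets overlapped (61.9% ± 9.3, SD, n = 3, and 66.7% ± 23.3, n = 2, exact permutation p = 0.7). Nfkbiz was also the gene with a peak well inside its body in 7 of 7 lists, which 1.32% of coding genes had. That peak began 16226 to 16428 bp downstream of the start and ended 17414 to 19812 bp downstream. Its fold ranks were 10.5%, 14.9%, and 25.2% in the HFD lists and 27.9%, 60.6%, 23.8%, and 33% in the LFD lists. The inner peak stood nearer the top than the start peak in 4 of the 5 lists with both, the exception being LFD-LSK replicate 2. LFD-LSK replicates 3 and 4 called the inner peak and no start peak.

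**Figure D4:**
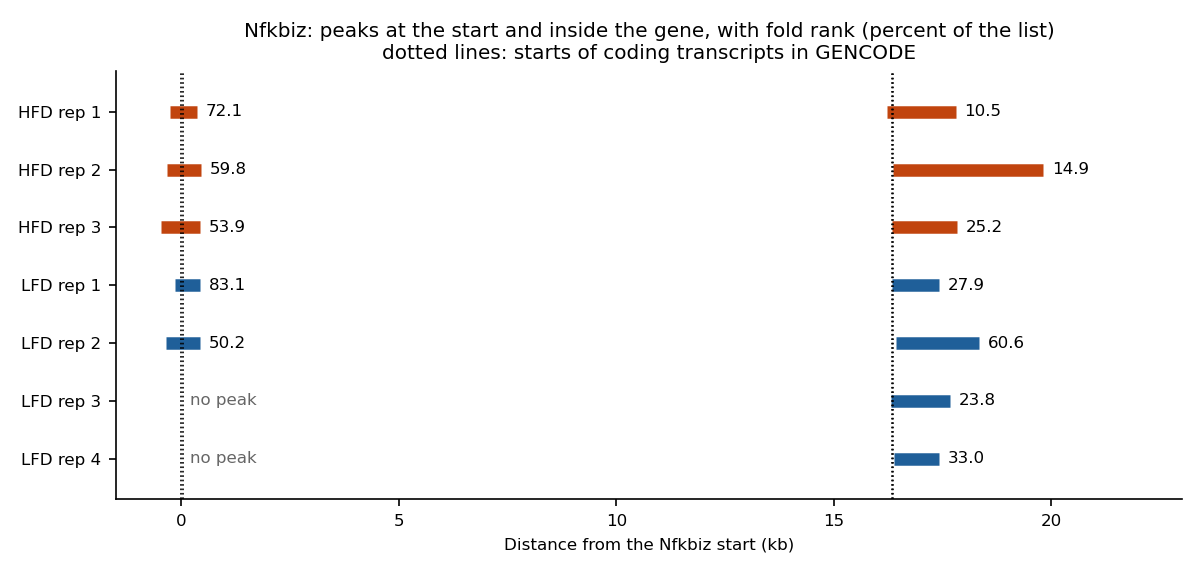
Peaks at the Nfkbiz start and inside the gene in each list (horizontal axis, kb from the start), with the fold rank in percent of the list beside each bar, HFD-LSK in orange, LFD-LSK in blue, and dotted lines at coding transcript starts of the GENCODE annotation. The inner peak is present in all 7 lists and begins beside the transcript starts 16343 and 16348 bp inside the gene.

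In the GENCODE annotation of GRCm39, coding Nfkbiz transcripts begin 16343 and 16348 bp downstream of the first coding start, and the first of these is the Ensembl canonical transcript. The inner peaks began beside these starts, with the distances taken within each build and no position converted. By diet, the inner peak ranked at 16.9% ± 7.59 (SD, n = 3) in HFD and at 36.3% ± 16.6 (n = 4) in LFD, a difference of -19.5 points with overlap through HFD-LSK replicate 3 (exact permutation p = 0.143). Without LFD-LSK replicate 2 the difference was -11.4 points. Its width was 2169 ± 1111 bp and 1348 ± 399 bp (exact permutation p = 0.171), and its summit height 261 ± 76.7 and 244 ± 43.4 times mean coverage (p = 0.857 by the same exact test).

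Bcl3, a nuclear IkB protein that binds p50 and p52 dimers, starts on chromosome 7 at 19822755 on the minus strand. Its start peak was found at 91.6% and 13% of HFD-LSK replicates 2 and 3 and at 74.2% of LFD-LSK replicate 2. These 3 peaks rested on 14, 17, and 19 fragments and were 388, 532, and 696 bp wide. With so few fragments, the order between lists cannot be read. Other genes had peaks as small, such as Rel, Rela, Nfkb2, and Nfkbie in HFD-LSK replicate 3 with 16, 16, 17, and 13 fragments. Inside the gene, from 5007 to 6902 bp downstream of the start, a peak was called in the 3 HFD lists and 2 peaks each in LFD-LSK replicates 2 and 3. Bcl3 therefore had a mark inside the gene in 5 lists and at the start in 3. Among annotated transcripts of GRCm39, a processed one begins 6941 bp inside the gene.

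Beyond Nfkbiz and Bcl3, peaks inside the genes were few. A peak between 83385 and 85219 bp inside Nfkb1 was called in HFD-LSK replicate 2 and LFD-LSK replicate 2, with fold ranks of 78.8% and 92.2%. In GRCm39 a coding Nfkb1 transcript begins 83711 bp from the first start. Counted over the 10 genes, there were 2, 3, and 3 body peaks in the HFD lists and 1, 5, 3, and 1 in the LFD lists. These counts include the inner Nfkbiz peak, beside annotated transcript starts, in every list. They also include the second piece of the Nfkbie domain in HFD-LSK replicate 3 and LFD-LSK replicate 2. The mean counts of 2.67 ± 0.577 (SD, n = 3) in HFD and 2.5 ± 1.91 (n = 4) in LFD differed by 0.167, less than the spread within either diet (exact permutation p = 1).

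The wider pathway was read from 3 lists of genes. Among 10 kinases and adaptors upstream of IkB, 5 were called in all 7 lists and none was without a call, beside 21.8% of all coding starts called in all 7 lists and 53.9% in at least 1. Map3k7, which encodes TAK1, ranked highest (mean 10.3%) and Ikbke, an IKK-related kinase, lowest (77.6%, called in 5 lists). Among 20 genes of ubiquitin signalling and feedback, 10 were called in all 7 lists and 10 in some. Rnf31, the catalytic subunit of the linear ubiquitin ligase, ranked highest (8.53%), and Traf1, an adaptor induced by NF-kB, ranked at 98.5% of the 1 list that called it. Of the 20 inflammatory targets, 8 were called in at least 1 list, a share below the 53.9% of all coding starts. Sod2, a mitochondrial antioxidant enzyme, and Bcl2l1, an inhibitor of apoptosis, were called in all 7 lists, 6 were called in some, and 12 in none, namely Il6, Il1b, Cxcl1, Cxcl2, Ccl2, Ccl5, Vcam1, Nos2, Il12b, Csf2, Bcl2a1b, and Lta, most of them cytokine and chemokine genes. Of those called, Myc, a growth regulator, ranked highest (18%) and Icam1, an adhesion molecule, lowest (72.3%).

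None of the 17 pathway genes called in every list had a fold rank p under 0.05 by the exact permutation test, beside 2.42% of all such starts. The median difference between HFD and LFD was -6.52 points for the kinases, -2.86 points for the ubiquitin and feedback genes, 18.6 points for the 2 inflammatory targets, 13.2 points for Nfkb1 and Rela, and -1.79 points over all 4677 starts. Rnf31 was the 1 pathway gene with a width rank p under 0.05, wider in the LFD lists (exact permutation p = 0.0286, adjusted p = 1), 1 of 17 beside 1.84% of all starts.

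**Figure D5:**
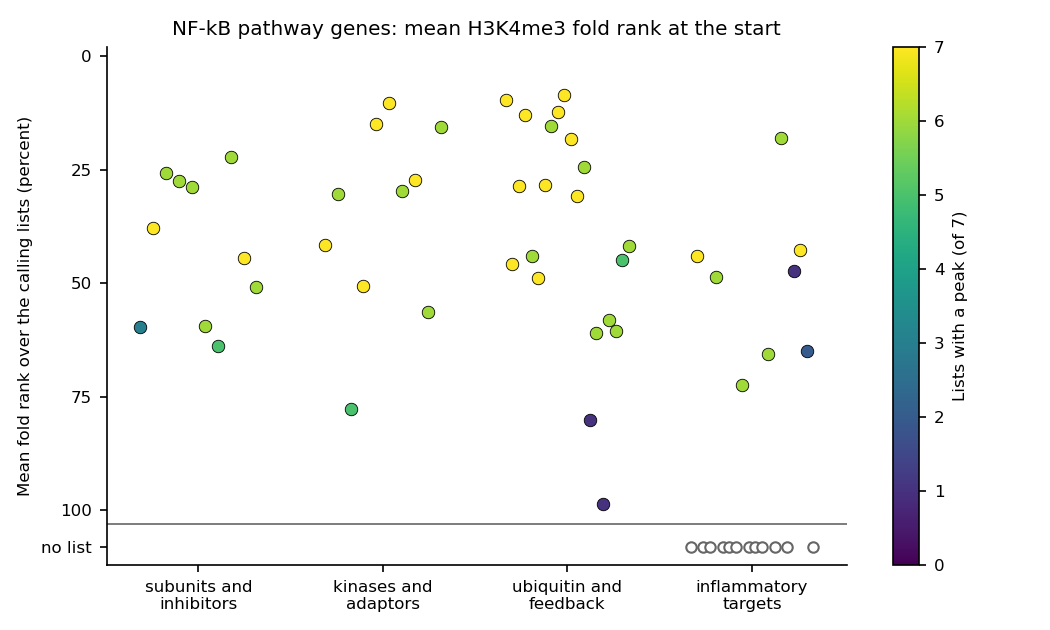
Mean fold rank of the start peak over the calling lists (vertical axis, percent of the list, strongest at the top) for the 10 subunits and inhibitors, 10 kinases and adaptors, 20 ubiquitin and feedback genes, and 20 inflammatory targets, coloured by the number of lists with a peak. Open circles are the 12 inflammatory targets without a peak in any list.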

How the data were processed

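H3K4me3 libraries of LSK cells, 3 HFD and 4 LFD, were grouped by the sample titles. According to the submitters' processing notes, reads were handled with Trim Galore, Bowtie2, Picard, MACS2, bedtools, HOMER, and featureCounts on GRCm38, whereas the methods name GRCm39 and SEACR. Peak positions matched GRCm38 starts (70.9% to 82.7% of peaks within 1 kb) and not GRCm39 starts (7.52% to 8.32%), so GRCm38 was used. The authors deposited 1 narrow peak list per library, with a score, a fold, a −log10 p and a −log10 q value for each peak. The fold is the ratio of the summit, scaled to the control of the library, to the local background (pseudocount 1). The deposited lists end at a p of 1e-05. The caller version is not given in the sources used here.

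Starts were those of the RefSeq promoter table (7 genes) or the 5' end of the RefSeq span with the GENCODE strand (3 genes). The strongest peak overlapping 1 kb either side of a start gave the fold rank, and all peaks overlapping it gave the domain width. Differences by diet were tested per start by a two-sided exact permutation test over the 35 assignments of the labels (smallest p 0.0286), with Benjamini-Hochberg adjustment over 4677 coding starts called in all 7 lists, and calls by Fisher's exact test. Body peaks lie inside a gene and away from its starts. Summit fragments were recovered as the whole numbers that return both fold and p, which solved 100% of peaks in every list. With the p-values shuffled between peaks, 1.04% (HFD-LSK replicate 3) to 12.9% (LFD-LSK replicate 1) were still solved. Mean coverage is the genome background of the same model. Computations used Python 3.11 with NumPy, SciPy, and pandas, and were tested on simulated data. The genes, pathway lists, and alternatives were chosen with earlier results of these data known, and all 10 genes are named. Pathway genes are named where they were called in no list, had a p under 0.05, or held the highest or lowest mean rank of their list. Sod2 and Bcl2l1 fall outside this rule and were named after their values were seen. The paper states that batch and pairing were accounted for in its differential peak analysis. The labels do not say whether replicate numbers pair the samples, so the main tests are unpaired and the replicate block is an alternative.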

Additional observations from a re-analysis of the deposited data

How the results depend on the processing

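Nfkb1 and Rela had no exact permutation p under 0.05 under any alternative that tested them over 7 lists, and with lists of equal length neither could be tested. With lists without a peak placed at 100%, 0 of the 10 genes had one, and 2.45% of 11564 starts did. The count of genes called in all 7 lists was 2, and became 1 with a −log10 q of at least 5, 0 with lists of equal length (6921 peaks), and 7 in the replicate block, which leaves out LFD-LSK replicate 4. Without 1 library it ranged from 2 to 7. The difference in body peaks, 0.167 per list, had no stable sign. It became -0.0833 with 500 bp around the starts and -0.333 in the replicate block, and ranged from -0.333 to 1 without 1 library. The Nfkb1 fold rank difference of 4.02 points became -7.97 with ranks by −log10 p, -1.42 with the q limit, and -0.0456 on the log2 scale of summit over mean coverage, an alternative chosen after seeing the data, as were the 5' end of the span, places in the list, and lists without a peak placed at 100%. Without 1 library it ranged from -13.5 to 19. With ranks by −log10 p, 1 of 17 pathway genes, Map3k14, had an exact permutation p under 0.05 (p = 0.0286, adjusted p = 0.991), against 0, where 2.16% of all starts did. The Rel fold rank difference of -15 points stayed negative, but its diets overlapped with ranks by −log10 p (-13 points, exact permutation p = 0.3), with lists of equal length, and with places in the list (p = 0.2 for both by the same exact test), and it was -0.0229 on the summit scale. The Relb width rank difference of -38.9 points ranged from -50.4 to -31 without 1 library, and its diets overlapped with ranks among peaks at starts (-34.4 points, exact permutation p = 0.2) and with lists of equal length (-25.8 points over 4 lists, exact permutation p = 0.667). With 500 bp around the starts the Relb peak of LFD-LSK replicate 3 was no longer counted, and the difference was -35.3 points over 5 lists (exact permutation p = 0.2). Whether replicate numbers pair the lists could not be settled. The deviations of same-numbered lists correlated only weakly, at 0.18, 0.0175, and 0.0446 for replicates 1 to 3. The correlation was nevertheless highest with the own number for replicates 1 and 2, and not for replicate 3. The block left the differences of Nfkb1 and Rela at 8.26 and 31.9 points (smallest p possible 0.25). Tests without 1 library could not go below 0.0667 or 0.1. The cause of these changes was not tested. Summits of 4 to 21 fragments are the least a list holds.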
